A study of Homo sapiens with 4 samples.

Results

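Interleukin 1 (IL-1) cytokines, their receptors and the protease that matures them were followed in the human breast cancer line MDA-MB-468, with mH2A1.2 knocked out and as wild type. The genes are IL1A, IL1B, IL1RN, IL1R1, IL1R2, IL1RAP, IL18, IL33, CASP1 and IL36G, and they were taken by name with every probe annotated to them, 17 of 47230 probes on the array. They make up 10 of the 20042 genes that the annotation names. mH2A1.2 (macroH2A1.2) is a splice form of macroH2A1, a histone H2A variant encoded by MACROH2A1, and the series set its loss beside the formation of osteoclasts, the cells that resorb bone. Knockout and wild type each had 2 arrays, Illumina bead arrays that shared 1 chip. How the knockout was made, and whether its arrays came from 1 clone or from separate cultures, is not given in the labels, so the spread between replicates may be technical. These genes were selected on their knockout against wild type values on the same 4 arrays, so their differences are described here and carry no test.

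IL-1 alpha (IL1A) and IL-1 beta (IL1B) both bind the receptor IL1R1, which signals once the accessory protein IL1RAP has joined it. The signal runs through the adaptor MYD88 and kinases of the IRAK family to NF-kB and stress kinases. IL1RN is an antagonist that occupies IL1R1 without starting a signal, and IL1R2 is a decoy receptor that captures the ligand. IL-1 beta and IL-18 are made as inactive precursors that caspase-1 (CASP1) cleaves inside inflammasomes, whereas the IL-1 alpha precursor is already active. IL-33 is a nuclear cytokine released from damaged cells and IL-36 gamma (IL36G) is a cytokine of epithelia. In bone, IL-1 is known to promote the formation and activity of osteoclasts.

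IL1A and IL1B lie next to each other on chromosome 2, with IL36G and IL1RN farther along the same cluster, and their promoters are shown because these 2 cytokines both read highest on knockout replicate 2 and lowest on wild type replicate 1. The sequences are from RefSeq on build GRCh38.p14 and hold the 250 bases before the annotated start, 5′ to 3′ on the minus strand, with capitals at each match to 1 of 4 motifs. IL1A, chr2:112784494-112784743, is shown for the start that lies farthest upstream of its 2 annotated starts, and IL1B, chr2:112836780-112837029, for its 1 annotated start.
IL1A: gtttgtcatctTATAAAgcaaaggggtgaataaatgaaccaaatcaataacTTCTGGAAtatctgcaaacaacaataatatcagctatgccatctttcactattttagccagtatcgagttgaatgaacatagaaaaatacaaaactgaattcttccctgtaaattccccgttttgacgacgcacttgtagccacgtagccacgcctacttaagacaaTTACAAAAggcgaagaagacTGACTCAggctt
IL1B: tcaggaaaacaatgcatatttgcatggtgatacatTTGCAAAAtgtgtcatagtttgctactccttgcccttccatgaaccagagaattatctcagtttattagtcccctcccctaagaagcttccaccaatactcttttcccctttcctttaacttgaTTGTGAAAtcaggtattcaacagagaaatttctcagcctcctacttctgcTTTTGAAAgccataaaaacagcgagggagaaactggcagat
The motifs, searched on both strands, were GGGNNNNNCC for NF-kB, TGANTCA for AP-1, TTNNGNAA for C/EBP and TATAAA for a TATA box, and no 2 of the matches shown overlap. The IL1A sequence holds 1 AP-1 match, TGACTCA, that begins 12 bases before the start, 2 C/EBP matches and 1 TATA match. The window of the second IL1A start holds 2 AP-1 matches. The IL1B sequence holds 3 C/EBP matches, which begin 215, 91 and 41 bases before the start, and no AP-1 match. Neither gene has the NF-kB letters in these windows. Over 35116 promoter windows of the same length, 54.4% held the NF-kB letters, 6.57% AP-1, 33.2% C/EBP and 10.7% TATA, so the C/EBP and NF-kB letters are frequent by themselves. Of the 10 genes, 8 have such windows in the table, and IL18 and CASP1 do not.

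The arrays were alike in brightness, and knockout replicate 2 stood apart from the other 3. Between 19318 and 19817 probes had a detection p under 0.05 on the knockout arrays and between 18753 and 18991 on the wild type arrays, where detection p is the chance that negative control beads give as bright a signal. For 147 probes, none of them of the family, the deposited detection p lay between the steps that all other probes share, did not follow the signal, and was at most 0.05 on every array. Between 101 and 105 of them were dimmer, on each array, than the dimmest other probe with a detection p under 0.05, and all 147 were kept. The knockout arrays differed more than 2-fold from each other in 1012 of the 19752 probes kept, and the wild type arrays in 89. Knockout replicate 2 differed from the wild type arrays in 2272 and 1630 probes, and knockout replicate 1 in 528 and 656. MACROH2A1 gave 12.32 and 12.12 in knockout, against 13.04 and 12.96 in wild type, at its brightest probe on the normalised log2 scale. Of its 3 detected probes 2 read lower and 1 higher in knockout, so the target was checked only in part. Of 8 markers of the line 5 were detected, among them EPCAM and KRT8, whereas CDH1, the gene of E-cadherin, was not detected on any array at its 1 probe. Of 3 receptor genes that are low in triple-negative lines, PGR, the progesterone receptor gene, was not detected on any array. The other genes, ERBB2 and ESR1, were kept, ESR1 through the knockout arrays alone.

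Of the 10 genes, 5 were measured. A probe was kept where detection p was under 0.05 on at least 2 of the 4 arrays. The 7 probes kept, of IL1A, IL1B, IL18, IL1RAP and CASP1, were each detected on all 4 arrays, so none was kept through 1 group alone. IL1RN, IL1R2, IL33 and IL36G were not detected on any array with any of their probes, and IL1R1 was detected on 1 array. Across all 17 probes 9 were never detected. Among the ligands and receptors of the family, this leaves both IL-1 cytokines, IL-18 and the accessory chain IL1RAP above background. There was no clear signal for the antagonist, the decoy receptor or the signalling receptor.

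**Figure D1:**
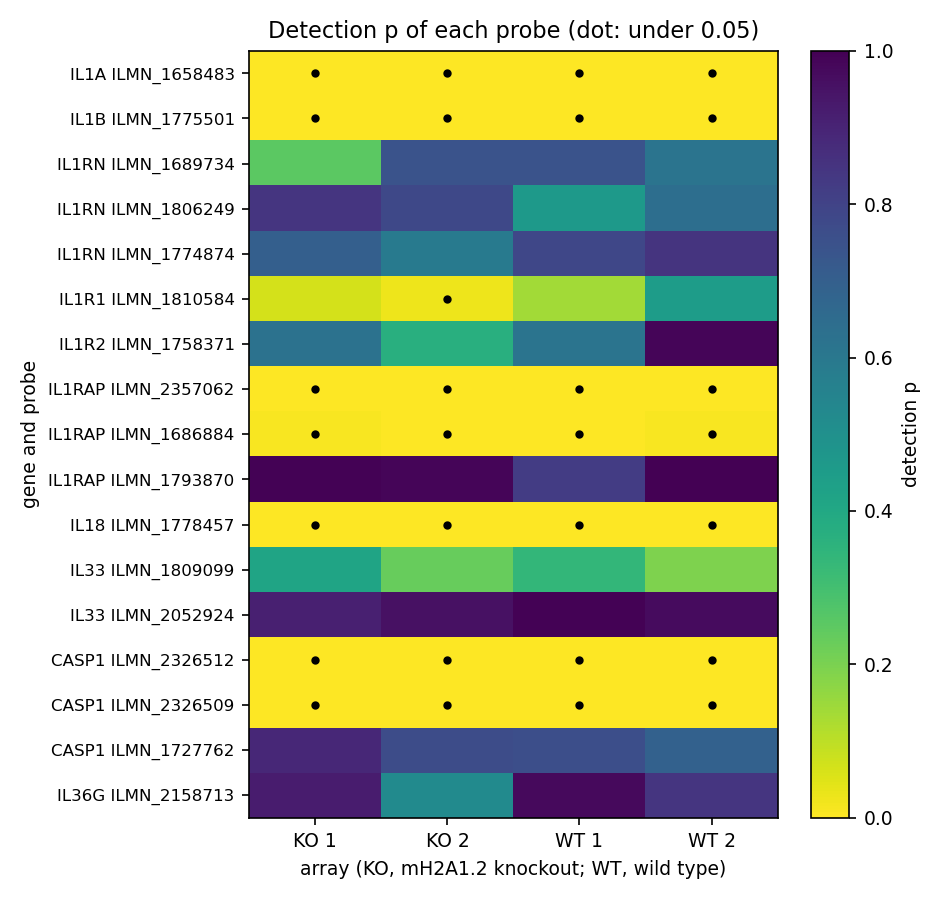
Detection p (colour, 0 to 1) of each of the 17 probes (rows, gene and probe) on the knockout and wild type arrays (columns), with a dot where it is under 0.05. The 7 kept probes carry dots on all 4 arrays, and IL1R1 carries 1, on knockout replicate 2.

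IL1B, which encodes the precursor of IL-1 beta, read highest on knockout replicate 2 and lowest on wild type replicate 1. As deposited, its signal intensity was 1825 and 3428 on knockout replicates 1 and 2, against 606 and 1445 on wild type replicates 1 and 2. After normalisation these were log2 values of 10.71 and 11.85 in knockout, against 8.86 and 10.25 in wild type. Both knockout arrays lay above both wild type arrays, and the nearest 2, knockout replicate 1 and wild type replicate 2, were closer to each other than either pair of replicates. The means were 11.28 ± 0.80 in knockout and 9.56 ± 0.99 in wild type (SD, n = 2 each). The difference was 1.72 ± 0.64 on the log2 scale (knockout minus wild type, moderated SE), or 3.30-fold. Without knockout replicate 2 it was 1.15, and without wild type replicate 1 it was 1.02.

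IL1A, which encodes IL-1 alpha, also read highest on knockout replicate 2 and lowest on wild type replicate 1. After normalisation its groups overlapped by little. Its signal intensity was 1049 and 2256 in knockout, against 577 and 1107 in wild type. On the normalised log2 scale the knockout arrays gave 9.83 and 11.21, and the wild type arrays 8.78 and 9.83. Knockout replicate 1 lay just under wild type replicate 2, while knockout replicate 2 lay above both wild type arrays. Between arrays of the same replicate number, knockout lay above wild type at both numbers, though no label says what a number stands for. In the authors' processed values knockout replicate 1 gave 9.97 and wild type replicate 2 gave 9.92, so the groups did not overlap there. The means were 10.52 ± 0.98 in knockout and 9.31 ± 0.74 in wild type (SD, n = 2 each), a difference of 1.21 ± 0.62 (log2, moderated SE), or 2.32-fold. It was 0.52 without knockout replicate 2 and 0.69 without wild type replicate 1.

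Within each group IL1A and IL1B were both brighter on the array numbered 2, and few probes differed so much between replicates. Between the wild type arrays IL1B differed by 1.40 and IL1A by 1.05 on the log2 scale, which was more than the gap of 99.9% and 99.6% of the 19752 kept probes. Between the knockout arrays IL1A differed by 1.38 and IL1B by 1.14, more than 98.5% and 96.6% of kept probes. The 2 cytokines were the most variable of the 7 probes, with standard errors of 0.62 and 0.64 against 0.11 to 0.21 for the other 5. In these bulk RNA samples, fewer cells that express a gene and less RNA in each cell cannot be told apart.

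**Figure D2:**
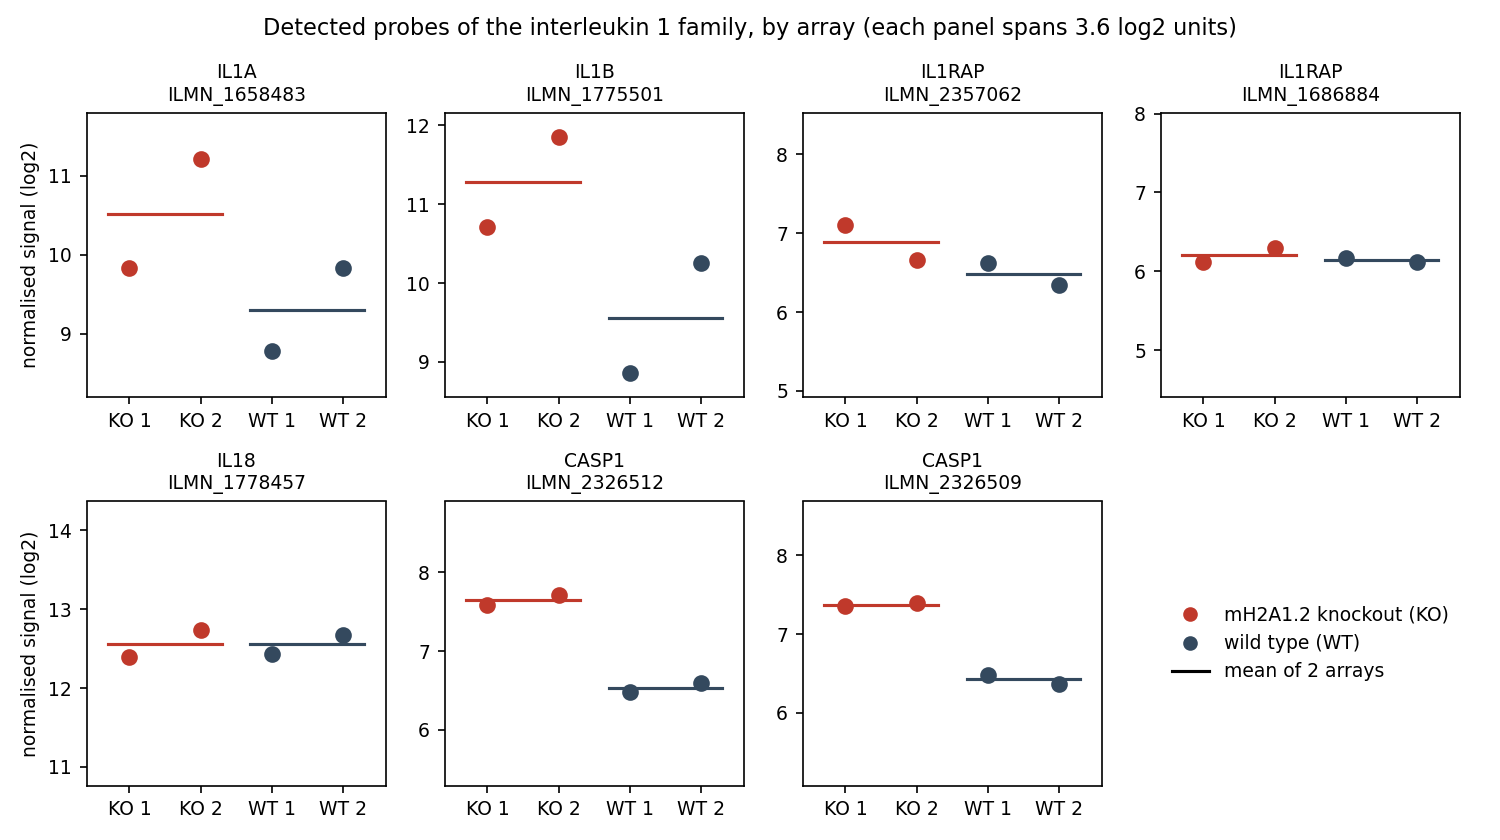
Normalised log2 signal of the 7 kept probes (1 panel each, all spanning the same number of log2 units) on the knockout (KO) and wild type (WT) arrays; points are arrays and lines are group means. IL1A and IL1B spread widely within both groups, while both CASP1 probes form 2 tight groups with knockout above wild type.

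CASP1, the gene of the protease that matures IL-1 beta and IL-18, read higher on both knockout arrays at both of its detected probes, and its replicates were close together. Probe ILMN_2326512 had signal intensities of 328 and 324 in knockout, against 198 and 216 in wild type. On the normalised log2 scale this was 7.58 and 7.71 against 6.48 and 6.59, a difference of 1.11 ± 0.11 (moderated SE, n = 2 per group), or 2.16-fold. The groups were far apart and the 2 knockout arrays nearly equal.

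Probe ILMN_2326509, annotated to the same CASP1 transcript record, had signal intensities of 298 and 286 in knockout, against 199 and 191 in wild type. On the normalised log2 scale it gave 7.35 and 7.39 against 6.49 and 6.37, a difference of 0.94 ± 0.11 (moderated SE, n = 2 per group), or 1.92-fold. With any 1 array left out the 2 CASP1 differences stayed between 0.88 and 1.18. Since these probes lie near background, the size depends on how background is removed: with no correction the differences were 0.69 and 0.60, and with the 147 probes left out before the correction they were 1.29 and 1.21. The third CASP1 probe, ILMN_1727762, annotated to another transcript record, was not detected on any array and lay between 5.79 and 5.85. Which CASP1 transcripts, and so which forms of the protease, the detected probes read was not tested.

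CASP1 has a neighbour on chromosome 11, CARD16, whose sequence closely resembles the start of CASP1, and the sources used here do not give where the probes lie in the transcript. The brightest CARD16 probe was detected on both knockout arrays and on no wild type array, and was at least 1.04-fold brighter in knockout. It was kept through the knockout arrays alone, near background there at signal intensities of 163 and 156. No other CARD16 probe was detected on any array. CASP4 and CASP5, which respond to bacterial lipopolysaccharide inside the cell, lie in the same cluster. CASP4 differed by -0.50 ± 0.28 at its brightest probe (log2, moderated SE, n = 2 per group), with overlapping groups. Its other kept probe, which was detected on 1 of the 2 knockout arrays, differed by -0.58 ± 0.11, and there the knockout arrays lay below those of the wild type. CASP5 was not detected on any array. All 3 were picked once their values were known.

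IL18, which encodes the other cytokine matured by caspase-1, was bright on all 4 arrays and had nearly the same mean in both groups. Its signal intensity was 5664 and 6397 in knockout, against 5808 and 6851 in wild type. The normalised log2 values were 12.39 and 12.74 in knockout and 12.43 and 12.68 in wild type, and the groups overlapped. The difference was 0.01 ± 0.18 (log2, moderated SE, n = 2 per group), and with 1 array left out it ran from -0.17 to 0.18. IL18 exceeded 97.1% of kept probes in mean normalised level. Scaling the arrays to equal medians, which moved the median of all genes to 0.12, gave IL18 a difference of 0.25.

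IL1RAP, the shared accessory chain of the receptors for IL-1, IL-33 and IL-36, was dim, and its probes disagreed. Probe ILMN_2357062 gave 7.10 and 6.66 on the normalised log2 scale in knockout, against 6.62 and 6.35 in wild type. Both knockout arrays lay above both wild type arrays, but knockout replicate 2 did so by little. The difference was 0.40 ± 0.21 (log2, moderated SE, n = 2 per group), or 1.32-fold, and it was 0.18 without knockout replicate 1 and 0.26 without wild type replicate 2.

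At IL1RAP probe ILMN_1686884, annotated to another transcript record, the groups overlapped, with 6.12 and 6.30 in knockout and 6.17 and 6.11 in wild type. Its difference was 0.07 ± 0.12 (log2, moderated SE), and 0.19 with the 147 probes left out before background correction. ILMN_1793870, which shares its record with ILMN_2357062, was not detected on any array. The 2 probes of that record thus gave different readings, ILMN_2357062 above background on every array and ILMN_1793870 on none. Which form of the accessory chain each IL1RAP probe reads was not tested.

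The receptors IL1R1 and IL1R2 and the antagonist stayed at or near background. IL1R1, the signalling receptor, had a detection p of 0.065 and 0.026 on the knockout arrays, against 0.14 and 0.445 on the wild type arrays. Its signal intensity was 151 and 153 in knockout and 145 and 136 in wild type. No fold is given, because its knockout mean did not exceed the lowest detected level of the wild type arrays. It was above background on 1 of the 2 knockout arrays, so no clear difference is shown.

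IL1R2, the decoy receptor that neighbours IL1R1 on chromosome 2, had a lowest detection p of 0.37, on knockout replicate 2. The 3 probes of the antagonist IL1RN had detection p values from 0.253 to 0.849, and their normalised log2 values lay between 5.80 and 5.95 on the 4 arrays. The 2 IL33 probes had detection p values from 0.195 to 0.995, and the IL36G probe from 0.523 to 0.973. No fold is given for these genes, since both groups were below the detection threshold.

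**Figure D3:**
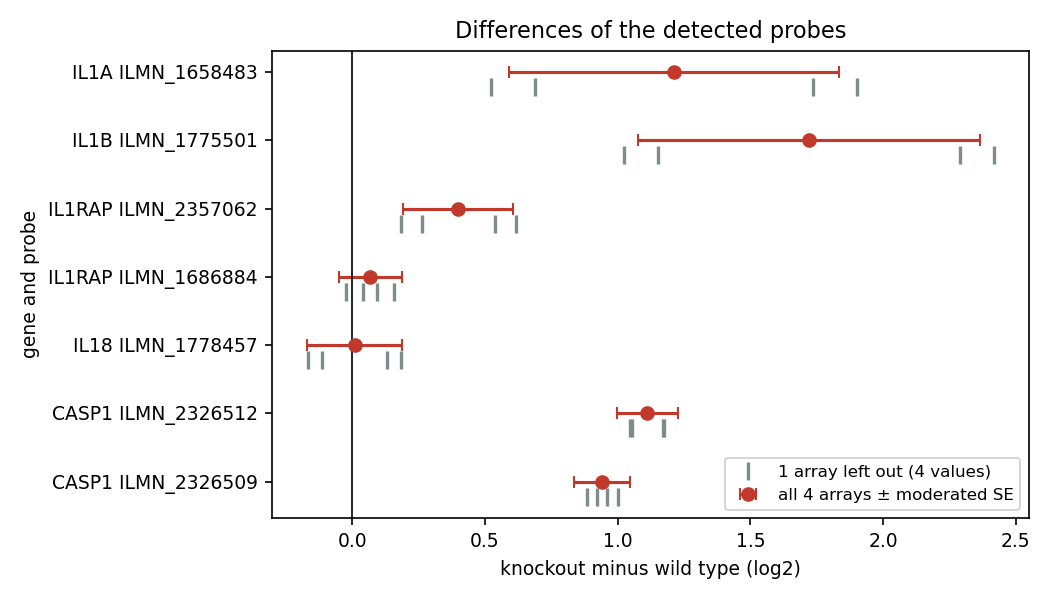
Log2 difference (knockout minus wild type) of each kept probe (rows), as the value from all 4 arrays with its moderated standard error (red) and the 4 values with 1 array left out (grey ticks). The ticks of IL1A run from 0.52 to 1.90 and those of IL1B from 1.02 to 2.42, whereas those of the CASP1 probes lie within their standard errors.

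Set beside all probes measured, the family is described as follows. Limma's moderated test over the 19752 kept probes called 0 at an adjusted p under 0.05 (0%), so 0 of the 7 probes of the family were called, and 3415 (17.3%) had an unadjusted p under 0.05. Of the 7, 2 had an unadjusted p under 0.05, both of CASP1. In 4 of the 7, of IL1B, CASP1 and IL1RAP, both knockout arrays lay above both wild type arrays, as did 23.8% of all kept probes, and in 0 did both lie below, against 26.2%. Their median difference was 0.94 on the log2 scale, against -0.011 over all kept probes. Because the genes were chosen with this comparison in view, nothing is read from these counts. With no background correction the median was 0.60, and without knockout replicate 2 it was 0.62.

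Leukocytes are a known source of IL-1 beta and caspase-1, and their markers were read beside these genes. Of 15 markers 6 were measured, and 0 passed limma's test over all probes, against 0% of all genes. Of the 6, 5 had positive differences, with a median of 0.27. In 3 both knockout arrays lay above both wild type arrays and in 1 below, where all genes measured did so in 25.9% and 28.2%. The median was 0.52 without knockout replicate 1 and 0.085 without knockout replicate 2. Their summed signal intensity was 2433 and 3624 on the knockout arrays, against 2101 and 3017 on the wild type arrays, so the groups overlapped. CD68, a macrophage lysosomal protein, made up most of that sum, with 1374 and 2372 in knockout and 1207 and 2055 in wild type. CD14, a lipopolysaccharide co-receptor of monocytes that some epithelial cells also make, gave 7.45 and 8.36 on the log2 scale in knockout, against 6.63 and 6.64 in wild type. It differed by 1.27 ± 0.34 (moderated SE, n = 2 per group). LAPTM5, CD68, AIF1 and CORO1A differed by 0.46, 0.35, 0.18 and 0.14, and CSF1R, a macrophage growth factor receptor, by -0.051. PTPRC, the leukocyte antigen CD45, with 4 probes, and SPI1, a master regulator of myeloid cells, with 2, were not detected on any array.

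Other genes of the inflammasome and of cytokine processing were measured in 14 of 30 cases, and 10 of these had positive differences, as did 49.2% of all genes. In 7 both knockout arrays lay above both wild type arrays and in 2 below, where all genes did so in 25.9% and 28.2%. CARD16, 1 of the 7, was kept through the knockout arrays alone. PYCARD, the adaptor ASC that joins sensors to caspase-1, gave 8.12 and 8.50 on the log2 scale in knockout, against 7.08 and 6.995 in wild type. It differed by 1.27 ± 0.17 (moderated SE, n = 2 per group), or 2.42-fold, and its other probe was not detected. GSDME, a pore-forming gasdermin, differed by 0.94 ± 0.24, and CAPN1, a calpain of the protease family that cuts the IL-1 alpha precursor, by 0.67 ± 0.27. CARD8, an inflammasome sensor, differed by -0.60 ± 0.15. NLRP3, the sensor best known for IL-1 beta maturation, read lower at -0.31 ± 0.13, and GSDMD, the gasdermin through which IL-1 beta leaves the cell, read higher at 0.41 ± 0.22. Both were chosen after their values were seen.

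None of the 14 genes passed limma's test at an adjusted p under 0.05, as 0% of all genes did. At an unadjusted p under 0.05, 2 were higher and 1 lower, against 10% and 11.4% of the 11311 genes. The median of the 14 was 0.16, against -0.0048 over all genes. It was 0.26 without knockout replicate 1, 0.33 without wild type replicate 2 and 0.47 with the 147 probes left out before background correction. It was 0.11 without knockout replicate 2, 0.12 with an offset of 50 and 0.016 with no detection filter, which adds undetected genes. Under scaling to equal medians it was 0.36, where the median of all genes was 0.12.

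Genes of signalling from IL1R1, which here include adaptors, kinases, NF-kB subunits and inhibitors, lay mostly lower in knockout after quantile normalisation. Of 31 genes 25 were measured, 20 of them with negative differences, and in 13 both knockout arrays lay below both wild type arrays while in 2 they lay above, against 28.2% and 25.9% of all genes. MAPK8, the stress kinase JNK1, differed by -1.61 ± 0.11 on the log2 scale (moderated SE, n = 2 per group) at its brightest probe, with 6.51 and 6.40 in knockout against 8.01 and 8.12 in wild type. That probe is annotated to a cDNA record outside RefSeq. The dimmer MAPK8 probe, annotated to a RefSeq transcript, differed by -0.11 ± 0.11. IRAK1, the kinase recruited to the receptor, differed by -0.81 ± 0.16. NFKBIB, an inhibitor of NF-kB, and MAP2K4, a kinase that activates JNK, differed by -0.71 ± 0.12 and -0.68 ± 0.14. The median was -0.17. Of the 25, 0 passed limma's test, against 0% of all genes, and 7 were lower at an unadjusted p under 0.05, as were 11.4% of all genes. The median was -0.042 without knockout replicate 1 and -0.39 without knockout replicate 2. Under scaling to equal medians 12 of the 25 were negative and the median was 0.016, below the 0.12 of all genes. Under that scaling both knockout arrays lay below both wild type arrays in 5 of the 25 and above them in 2, against 10.7% and 34% of all genes.

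Genes that IL-1 is known to induce were measured in 22 of 32 cases, with 17 positive differences and a median of 0.20. In 10 both knockout arrays lay above both wild type arrays and in 2 below, against 25.9% and 28.2% of all genes. MMP1, a collagenase gene picked once its values were known and 1 of the 10, was kept through the knockout arrays alone. The median was 0.44 without knockout replicate 1, 0.37 without wild type replicate 2, 0.12 without knockout replicate 2 and 0.13 without wild type replicate 1, and 0.42 under scaling to equal medians. C3, the central complement protein, gave 7.58 and 8.24 on the log2 scale in knockout, against 6.13 and 6.06 in wild type. It differed by 1.82 ± 0.25 (moderated SE, n = 2 per group), or 3.52-fold. Its wild type signal intensities of 162 and 156 lay near background, which limits how well the fold is known. The other C3 probe was detected on knockout replicate 1 only. ZC3H12A, an RNase that degrades inflammatory transcripts, differed by 1.55 ± 0.39 and CSF1, a growth factor that osteoclast precursors need, by 0.47 ± 0.12. The CSF1 probe was detected on 1 of the 2 wild type arrays, and the other kept CSF1 probe on neither. TNFAIP3, a brake on NF-kB signalling, differed by -0.39 ± 0.12. The chemokine gene CXCL8 and the cytokine gene IL6, both chosen after their values were seen, differed by 0.15 ± 0.19 and 0.19 ± 0.30, with overlapping groups. The other kept CXCL8 probe differed by 0.42 ± 0.10, with both knockout arrays above both wild type arrays. Of the 22, 0 passed limma's test, against 0% of all genes. At an unadjusted p under 0.05, 3 were higher and 1 lower, against 10% and 11.4% of all genes.

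The remaining relatives of the family were almost all below detection. Of 13 genes, which include the other IL-36 cytokines, IL37 and the receptors for IL-18 and IL-33, 2 were measured. IL18BP, a secreted protein that neutralises IL-18, differed by 0.11 ± 0.14 on the log2 scale (moderated SE, n = 2 per group). IL1RAPL1, a receptor-like relative of IL1RAP, differed by -0.12 ± 0.46. In both the groups overlapped. The chains of the IL-18 receptor, IL18R1 and IL18RAP, were not detected on any array.

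**Figure D4:**
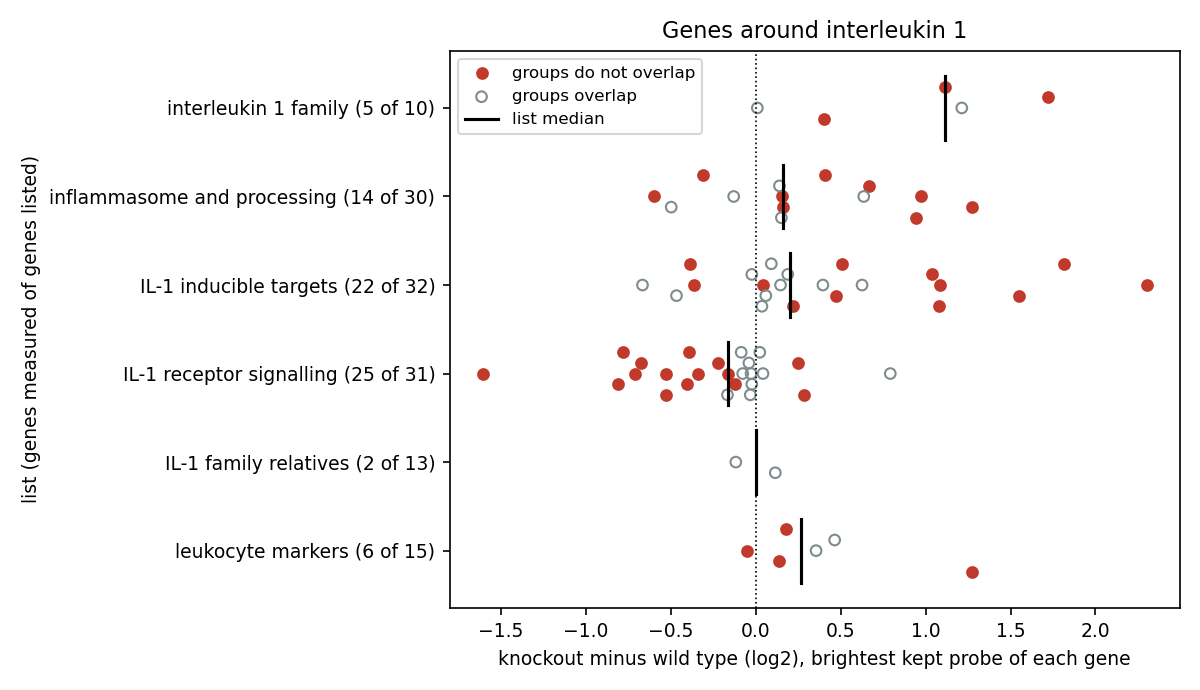
Log2 difference (knockout minus wild type) of each measured gene (points) at its brightest kept probe, by list, with the list median as a black line; filled points are genes whose groups do not overlap. The interleukin 1 family has a median of 1.11 over its 5 genes, and signalling genes lie mostly left of 0, with a median of -0.17.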

How the data were processed

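Total RNA of 4 samples was labelled as biotinylated cRNA and hybridised to Illumina bead arrays, per the labels' protocols; the submitters' processing notes name GenomeStudio. Its version and a genome build are not given in the sources used here. Per the file headers, the authors deposited a signal intensity, neither normalised nor background-subtracted, and a detection p-value per probe. The authors' processed table of log2 values covers all 17 probes and was an alternative; its normalization is unstated. Its columns matched their own arrays (r = 0.960 to 0.968 over 19736 probes, deviations from each probe's mean).

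Intensities were corrected with limma's normexp method from the detection p-values (offset 16), quantile normalised and log2 transformed with limma 3.58.1 in R 4.3.3. Limma was fitted to 19752 kept probes without a block, with two-sided p-values adjusted by Benjamini-Hochberg; 0.05 was the threshold. Genes in lists were taken by their brightest kept probe. Names came from GEO's platform annotation (30074 probes with 1 symbol, 8 with several, 17148 unnamed here), updated through the gene number for 30035. A bound compares the brighter group's mean with, on each array, the higher of the lowest detected signal and the gene's own, the 147 probes whose detection p departs from the signal (over 0.01 of a step from the shared steps) left aside. The fit was tested on simulated data. Named genes are the 10 members, MACROH2A1 and, in each list, up to 4 genes with the smallest p, besides undetected defining markers; the members and lists were chosen with earlier results of these data known. Markers of fibroblasts, of endothelium and of receptors low in triple-negative lines were also read. Of these, 3 of 8, 0 of 5 and 2 of 3 genes were kept. Among the fibroblast genes DCN was kept only by a detection p that departs from its signal, and it is not treated as measured. With 2 arrays in each group, their number limits the precision.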

Additional observations from a re-analysis of the deposited data

How the results depend on the processing

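The replicate numbers 1 and 2 are shared by the groups, but no label says what a number stands for. Over 19752 probes the gap between replicates in knockout correlated at 0.49 with that in wild type. With the replicate block, limma again called 0 probes, with 4567 at an unadjusted p under 0.05 against 3415 without it. Differences are the same in both fits; the standard error of IL1A became 0.14 in place of 0.62, and that of IL1B 0.13 in place of 0.64.

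Limma called 0 probes under every alternative with all 4 arrays; with 1 array left out calls ran from 0 to 3897. There were 3897 without knockout replicate 1 and 3 without knockout replicate 2, in fits that give the lone knockout array the spread of the wild type pair. Without wild type replicate 1 or 2 there were 0, with 1122 and 1185 at an unadjusted p under 0.05, against 6840 without knockout replicate 1. Of probes with an unadjusted p under 0.05, 47.6% were higher in knockout, and 85.3% under scaling to equal medians.

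The count of family probes whose groups lie apart, 4, was 3 to 6 under the other alternatives and 5 to 7 with 1 array left out, reaching 7 without knockout replicate 1; 1 array against 2 overlaps less often by construction. The median difference, 0.94, was 0.60 with no background correction, 0.73 with an offset of 50, 0.84 on the authors' values, 1.17 under scaling to equal medians, 1.11 with 1 probe per gene, 1.19 with the 147 probes left out whose detection p departs from the signal, a setting chosen after seeing the data, and 1.03 both with the mean of probes and with detection p under 0.01 on all 4 arrays. It ran from 0.62 to 0.96 with 1 array left out. No family probe whose groups lie apart changed sign under any alternative. With 1 array left out such a change could not occur, and other fits to the same values leave a difference as it is. Of the probes whose groups overlap, IL18 differed by -0.17 and IL1RAP probe ILMN_1686884 by -0.023 without knockout replicate 2. Dim probes, those of CASP1 and IL1RAP, are limited by signal over background.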

Other observations

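Of the IL-1 inducible genes, 5 outside the naming rule were chosen after their values were seen. LCN2, the iron-binding lipocalin 2, gave 8.998 and 11.56 on the log2 scale in knockout, against 7.62 and 8.34 in wild type, a difference of 2.30 ± 0.95 (moderated SE, n = 2 per group). CEBPD, a transcription factor of the C/EBP family, differed by 1.09 ± 0.49, SOD2, mitochondrial superoxide dismutase, by 1.08 ± 0.47, and PTGES, a prostaglandin E synthase, by 1.04 ± 0.62. In all 4 the knockout arrays lay above the wild type arrays, as in 25.9% of all genes, with knockout replicate 2 the higher of the 2. Because these genes were chosen by their values, nothing is read from this count. SAA1, an acute phase protein, went the other way at -0.67 ± 0.53, with overlapping groups.

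Markers of other cell types and of the line itself were read in the same fit. Of them 0 passed limma's test over all probes, against 0% of all genes. PECAM1, which defines endothelium, was not detected on any array. Of the fibroblast markers, PDGFRB differed by 1.08 ± 0.28 on the log2 scale (moderated SE, n = 2 per group). DCN, the gene of decorin, is among the genes whose detection p departed from the signal. Its signal of 135 and 143 in knockout and 141 and 138 in wild type was dimmer than that of the dimmest detected probe outside the 147 on each array, so it is not treated as measured. Among epithelial markers, the keratin genes KRT19 and KRT8 differed by 2.23 ± 0.37 and 0.51 ± 0.12, EGFR by 0.58 ± 0.36 and EPCAM by 0.08 ± 0.13. KRT18, the remaining one measured, differed by -0.11 ± 0.26 with overlapping groups, and by -0.57 ± 0.11 with groups apart at its other probe. The detection p of EGFR also departed from the signal, which was between 540 and 881 on the 4 arrays. ERBB2 differed by 0.39 ± 0.18. The collagen gene COL1A1 and ESR1, the oestrogen receptor gene, were not detected on either wild type array and were kept through the knockout arrays alone, at least 1.14-fold and 1.02-fold brighter there.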
